A study of Rattus norvegicus with 6 samples.

Results

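Cholesterol synthesis and its control by sterol regulatory element-binding protein 2 (SREBP2) were examined through 8 genes in RNA-seq of isolated rat glomeruli. The 8 genes were 6 enzymes of the pathway (HMGCS1, IDI1, FDFT1, SQLE, CYP51A1 and MSMO1), the sterol sensor INSIG1, and SREBF2, which encodes SREBP2 itself. They were chosen by symbol, given in the human form in the deposited tables, and each symbol belonged to 1 Ensembl identifier. The choice was made with earlier results of these data known, so shares of the 8 set beside those of all genes are descriptions. All 8 were among the 26319 genes of the count table and among the 13426 that passed the filter on low counts.

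The study asked how glomerular transcripts differ in rats with the AT1R Tg genotype and in such rats given AC1903, a small molecule that inhibits the channel TRPC5. In all, 6 libraries fall into 3 groups of 2, all from Sprague Dawley rats. AT1R Tg rats treated with AC1903 were 23.0 weeks old (replicate 1) and 20.4 weeks old (replicate 2). AT1R Tg rats given vehicle were 20.4 and 17.4 weeks old. WT rats, also given vehicle, were 20.4 and 21.9 weeks old. AT1R is the angiotensin II type 1 receptor. No source used here gives the cell type that carries the transgene, the dose or the length of treatment.

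Animal cells make cholesterol from acetyl-CoA through the mevalonate pathway. HMGCS1 catalyses an early condensation, IDI1 isomerises the first isoprenoid unit, FDFT1 joins 2 farnesyl groups into squalene, SQLE oxidises squalene, and CYP51A1 and MSMO1 remove methyl groups from lanosterol and the sterols made from it. SREBP2 is made as a membrane-bound precursor that the escort protein SCAP carries to the Golgi, where proteases release the transcription factor when sterols are low. INSIG1 holds SCAP back in the endoplasmic reticulum when sterols are plentiful, and its own gene is an SREBP target. In the glomerulus, cholesterol is a component of the podocyte membrane around the slit diaphragm.

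SREBP2 is known to act through sterol regulatory elements, usually beside boxes bound by NF-Y, so the proximal promoters are shown for 4 of the 8 genes: the enzyme gene with the lowest level in AC1903 glomeruli relative to both other groups (HMGCS1), an enzyme gene and the factor's own gene that hold a short sterol regulatory element core (MSMO1 and SREBF2), and the sensor gene (INSIG1). The windows run from 250 bases before to 50 after the RefSeq gene start (GRCr8), read 5′ to 3′ on the strand of the gene. HMGCS1 is at chr2:53382054-53382353 (plus strand), MSMO1 at chr16:29746863-29747162 (plus), INSIG1 at chr4:8057720-8058019 (minus) and SREBF2 at chr7:115543057-115543356 (plus). Capitals mark the letters TCACNCCA (or the longer TCACNCCAC that contains it), the E-box CACGTG, and the NF-Y box CCAAT, on either strand.
HMGCS1: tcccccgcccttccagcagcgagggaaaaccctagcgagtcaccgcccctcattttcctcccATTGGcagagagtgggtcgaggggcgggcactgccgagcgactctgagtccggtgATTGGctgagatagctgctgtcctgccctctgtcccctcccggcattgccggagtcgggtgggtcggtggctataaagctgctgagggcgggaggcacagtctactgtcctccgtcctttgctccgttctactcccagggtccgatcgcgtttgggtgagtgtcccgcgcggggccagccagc
MSMO1: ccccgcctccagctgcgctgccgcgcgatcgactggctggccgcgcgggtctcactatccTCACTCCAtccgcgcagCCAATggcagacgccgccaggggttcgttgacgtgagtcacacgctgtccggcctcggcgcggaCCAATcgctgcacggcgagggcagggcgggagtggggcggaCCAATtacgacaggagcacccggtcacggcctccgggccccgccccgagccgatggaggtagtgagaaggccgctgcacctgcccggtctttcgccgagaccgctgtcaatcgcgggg
INSIG1: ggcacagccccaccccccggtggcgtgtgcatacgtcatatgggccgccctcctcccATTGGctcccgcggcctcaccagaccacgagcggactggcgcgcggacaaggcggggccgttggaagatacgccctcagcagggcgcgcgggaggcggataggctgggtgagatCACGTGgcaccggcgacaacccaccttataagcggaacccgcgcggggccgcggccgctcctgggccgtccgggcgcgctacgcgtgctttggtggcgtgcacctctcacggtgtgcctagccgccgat
SREBF2: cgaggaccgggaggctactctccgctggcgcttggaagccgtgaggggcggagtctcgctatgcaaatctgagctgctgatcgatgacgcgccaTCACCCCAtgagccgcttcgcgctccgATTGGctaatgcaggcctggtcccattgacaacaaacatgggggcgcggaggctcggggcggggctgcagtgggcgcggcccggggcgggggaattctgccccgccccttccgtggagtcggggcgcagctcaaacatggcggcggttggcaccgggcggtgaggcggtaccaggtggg

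The table of RefSeq promoters matched 6 of the 8 genes (all but SQLE and FDFT1). The letters CCAAT occurred on either strand in 5 of the 6 windows, all but that of CYP51A1, and in 37.5% of all 33469 rat promoter windows of the same length. They stood at -188 and -133 from the start in HMGCS1, at -173, -109 and -68 in MSMO1, at -66 and -35 in IDI1, at -193 in INSIG1 and at -129 in SREBF2. TCACNCCA was found at -190 in MSMO1 and at -156 in SREBF2, 2 of the 6 windows, against 3.89% of all windows. The longer TCACNCCAC was in none of the 6 windows and in 1.12% of all windows. The E-box was at -79 in INSIG1 alone among the 6, and in 6.42% of all windows. These are matches of letters in a fixed window, with no measurement of binding. TCACNCCA and the E-box were added after a first look at the promoters, so their counts are descriptions only.

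Total expected counts were 12325515 and 12637582 in the AC1903 libraries, 13464600 and 14230770 in the vehicle libraries, and 25045081 and 36026772 in the WT libraries. Transcripts of the mitochondrial genome made up 34.0% (replicate 1) and 32.0% (replicate 2) of the AC1903 libraries. Their share was 25.3% and 40.5% with vehicle, and 22.3% and 28.3% in WT. Both AC1903 shares lay above both WT shares and between those of vehicle. The part of this share in the values of the 8 genes was not tested. None of 10 podocyte markers and 10 glomerular endothelial markers was at 0 in any library. The same held for the tubule and macrophage markers found, so this is no test of the glomerular label. Levels are given in CPM, counts scaled to a common library size, after trimmed mean of M-values (TMM) scaling, and are compared between libraries within a gene, never between genes. The lowest count behind any level of the 8 genes was 51, for IDI1 in AC1903 replicate 1, with a 95% exact Poisson interval of 38.0 to 67.1 counts. That interval covers counting error only. These are bulk samples, so fewer cells of a type and less RNA per cell cannot be told apart. With 2 libraries a group, p-values measure only the spread between these samples, and an exact permutation test of 2 against 2 cannot go below 0.3333.

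In AC1903-treated AT1R Tg glomeruli, 7 of the 8 genes had a lower mean than in vehicle-treated AT1R Tg glomeruli, by 0.36 to 0.90 on the log2 scale, and SREBF2 differed by 0.06. For HMGCS1, MSMO1, CYP51A1, SQLE, FDFT1 and INSIG1, both AC1903 libraries lay below both vehicle libraries. Of all 13426 genes, 18.4% had that arrangement and 19.9% the opposite one, which none of the 8 had. With no library left out, HMGCS1 was the only one of the 8 to pass an adjusted threshold of 0.05 with any tool. Among the tools with the same filter, it did so in DESeq2 alone. edgeR with no filter on low counts also called it (adjusted p 0.00995), but that setting called more genes in all than edgeR with the filter (given below). edgeR's quasi-likelihood test, the main test, called none of the 8 and none of the 13426 genes in this comparison (0%), with 1090 genes (8.12%) at an unadjusted p under 0.05. limma-voom also called 0 genes, and DESeq2 called 67 (0.499%).

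HMGCS1 (ENSRNOG00000016552), the enzyme that condenses acetyl-CoA with acetoacetyl-CoA, had 29.4 and 33.7 CPM in AC1903 glomeruli, 62.6 and 55.1 CPM in vehicle-treated AT1R Tg glomeruli, and 53.8 and 72.8 CPM in WT glomeruli. Both AC1903 libraries lay below the other 4, which overlapped. The group means were 31.6 ± 3.03 CPM with AC1903, 58.8 ± 5.27 CPM with vehicle and 63.3 ± 13.4 CPM in WT (SD, n = 2 each). The fitted AC1903 level was 0.537 times the vehicle level, a log2 change of -0.90 ± 0.19 (SE; 95% interval -1.34 to -0.45). The edgeR adjusted p was 0.538 (unadjusted 0.00155, rank 34 of 13426), the limma-voom adjusted p was 0.767, and the DESeq2 adjusted p was 0.0255. With any 1 of the 6 libraries left out, the DESeq2 adjusted p was 0.0683 to 0.587, so that call was lost each time, while the log2 change stayed between -1.01 and -0.82. In the authors' deposited table the same comparison has a log2 change of -0.90 and an adjusted p of 0.102, and none of the 8 genes passes there (0.378% of that table's genes do).

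IDI1 (ENSRNOG00000016690), the isopentenyl diphosphate isomerase, had 4.24 and 5.995 CPM in AC1903 glomeruli, 5.94 and 7.24 CPM with vehicle, and 4.92 and 5.39 CPM in WT. AC1903 replicate 1 was the lowest of the 6, and the AC1903 and vehicle libraries overlapped. The change of AC1903 against vehicle was -0.36 ± 0.34 (log2, SE; 95% interval -1.14 to 0.42; edgeR adjusted p 0.769). It was -0.18 without AC1903 replicate 1, -0.67 without AC1903 replicate 2, -0.22 without vehicle replicate 2 and, when the rats' age entered the model, -0.08. IDI1 had the fewest counts of the 8, and the widest of their 8 intervals.

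FDFT1 (ENSRNOG00000021314), squalene synthase, had 41.7 and 35.6 CPM in AC1903 glomeruli, 49.96 and 53.8 CPM with vehicle, and 49.7 and 62.8 CPM in WT. Both AC1903 libraries were again the lowest of the 6. The means were 38.6 ± 4.32 CPM, 51.9 ± 2.71 CPM and 56.2 ± 9.20 CPM in AC1903, vehicle and WT glomeruli (SD, n = 2 each), and the log2 change of AC1903 against vehicle was -0.43 ± 0.18 (95% interval -0.84 to -0.01; edgeR adjusted p 0.607).

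SQLE (ENSRNOG00000009550), squalene epoxidase, had 6.76 and 10.6 CPM in AC1903 glomeruli, 17.4 and 13.996 CPM with vehicle, and 9.19 and 14.1 CPM in WT. Here the AC1903 libraries lay below the vehicle libraries, while WT replicate 1 fell between the 2 AC1903 values. Its log2 change of AC1903 against vehicle was -0.85 ± 0.32 (95% interval -1.59 to -0.12; edgeR adjusted p 0.602), nearly the size of that of HMGCS1 but with a wider error.

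CYP51A1 (ENSRNOG00000007234), the lanosterol demethylase, had 25.1 and 21.3 CPM in AC1903 glomeruli, 37.6 and 33.8 CPM with vehicle, and 31.4 and 38.9 CPM in WT. MSMO1 (ENSRNOG00000032297), the methylsterol monooxygenase that acts in the following demethylation, had 30.9 and 30.1 CPM with AC1903, 55.3 and 44.6 CPM with vehicle, and 34.1 and 49.0 CPM in WT. In both genes the AC1903 libraries were the lowest of the 6 and the vehicle and WT libraries overlapped. The log2 change against vehicle was -0.62 ± 0.19 for CYP51A1 (95% interval -1.05 to -0.19; edgeR adjusted p 0.549). For MSMO1 it was -0.71 ± 0.21 (95% interval -1.20 to -0.22; edgeR adjusted p 0.549).

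INSIG1 (ENSRNOG00000006859), which retains SCAP, had 36.1 and 40.2 CPM in AC1903 glomeruli, 78.6 and 49.9 CPM with vehicle, and 47.8 and 64.8 CPM in WT. The AC1903 libraries were the lowest and close together, and vehicle replicate 1 was the highest of the 6. The log2 change against vehicle was -0.75 ± 0.25 (95% interval -1.31 to -0.19; edgeR adjusted p 0.556). Without vehicle replicate 1 it was -0.39. Without vehicle replicate 2, which left only the higher vehicle library in that group, it was -1.04 in DESeq2.

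SREBF2 (ENSRNOG00000007400) had 70.6 and 65.4 CPM in AC1903 glomeruli, 69.6 and 60.4 CPM with vehicle, and 76.6 and 86.4 CPM in WT. The 2 AT1R Tg groups overlapped and both lay below WT. The log2 change of AC1903 against vehicle was 0.06 ± 0.16, with a 95% interval of -0.30 to 0.43 (edgeR adjusted p 0.926). That interval does not reach the estimates of the other 7 genes, the nearest of which was -0.36 for IDI1. However, it overlaps the intervals of all of them except HMGCS1 (-1.34 to -0.45), and that of IDI1 (-1.14 to 0.42) includes 0.06. The difference between SREBF2 and the other genes was not tested. Processing of SREBP2 to its active form was not measured.

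**Figure D1:**
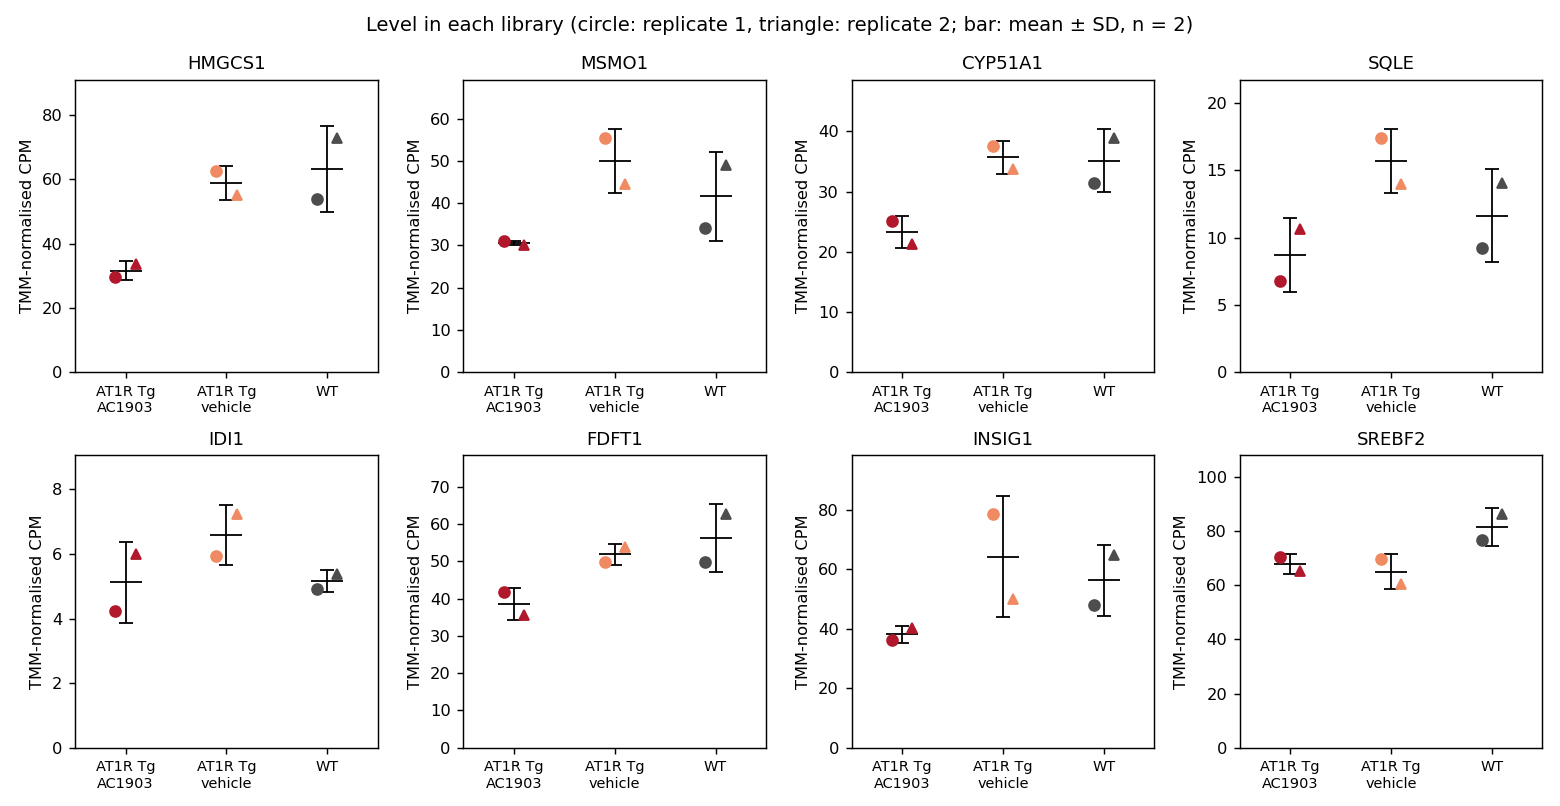
Level of each of the 8 genes in CPM (vertical axis from 0, TMM-scaled), with AC1903-treated AT1R Tg glomeruli on the left, vehicle-treated AT1R Tg glomeruli in the middle and WT on the right; points are libraries and bars are means ± SD (n = 2). The AC1903 points of HMGCS1 (29.4 and 33.7 CPM) lie below the other 4 libraries, whereas those of SREBF2 (70.6 and 65.4 CPM) overlap the vehicle points.

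Added together, the 7 genes other than SREBF2 came to 174 and 178 CPM in AC1903 glomeruli, 307 and 258 CPM with vehicle, and 231 and 308 CPM in WT. WT replicate 1 stood between the AC1903 libraries and the other 3. The median log2 change of AC1903 against vehicle over the 8 genes was -0.67, and over all 13426 genes it was -0.02. By sign alone 52.1% of all genes were below 0. At an unadjusted p under 0.05 in edgeR, 6 of the 8 were lower (all but IDI1 and SREBF2), against 2.77% of all genes in that direction. Since the 8 were chosen with earlier results of these data known, these shares and medians are no independent test of them. The adjusted p-values in edgeR ran from 0.538 to 0.926.

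Some other measures differed between these groups as well. The 13 macrophage and monocyte markers summed to 393 and 930 CPM in AC1903 glomeruli and 245 and 319 CPM with vehicle, with all 13 higher in the mean, 9 of them without overlap, none called by edgeR and 2 called by DESeq2. The 7 mesangial and vascular smooth muscle markers summed to 559 and 610 CPM with AC1903 and 796 and 623 CPM with vehicle, 6 of them lower in the mean. The 11 proximal tubule markers summed to 2629 and 2638 CPM with AC1903 and 2470 and 4699 CPM with vehicle, all 11 lower in the mean, 4 of them without overlap. The 9 markers of the loop, distal tubule and collecting duct summed to 632 and 584 CPM with AC1903 and 429 and 410 CPM with vehicle. Of these 9, 6 were higher and 3 lower in the mean, with 4 higher and 1 lower without overlap. The 10 glomerular endothelial markers summed to 9289 and 7216 CPM with AC1903 and 6550 and 7041 CPM with vehicle, 9 of them higher in the mean and 5 without overlap. The 10 podocyte markers summed to 10418 and 13783 CPM with AC1903 and 17525 and 9235 CPM with vehicle, and overlapped. Of all genes, 19.9% were higher and 18.4% lower without overlap in this comparison, and DESeq2 called 0.499%. None of the markers of these lists that was found in the table was at 0 in any library. The AC1903 rats were 23.0 and 20.4 weeks old and the vehicle rats 20.4 and 17.4 weeks old. The part of these differences in the values of the cholesterol genes was not tested.

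**Figure D2:**
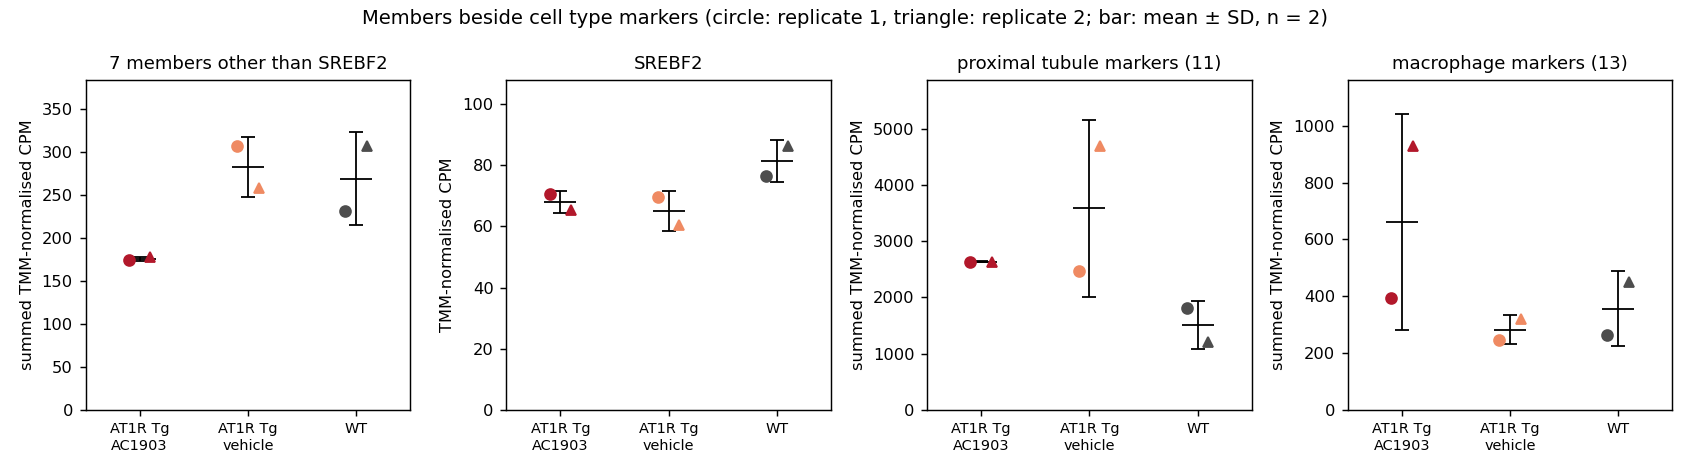
Panels show, in CPM from 0, the sum of the 7 cholesterol genes other than SREBF2, SREBF2 alone, the 11 proximal tubule markers and the 13 macrophage markers, with AC1903 on the left, vehicle in the middle and WT on the right; points are libraries and bars are means ± SD (n = 2). The cholesterol sum is 174 and 178 CPM in AC1903 glomeruli against 307 and 258 CPM with vehicle, and the macrophage sum is 393 and 930 CPM against 245 and 319 CPM.

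Set against WT, which differs from the AC1903 group in both genotype and treatment, all 8 genes had a lower mean in AC1903-treated AT1R Tg glomeruli, by 0.01 (IDI1) to 1.003 (HMGCS1) on the log2 scale. The fitted HMGCS1 level was 0.499 times that of WT, and HMGCS1 passed in DESeq2 and, with no filter on low counts, in edgeR (adjusted p 0.00165). Without the filter edgeR also called more genes in all here (given below). For 6 genes both AC1903 libraries lay below both WT libraries (HMGCS1, MSMO1, CYP51A1, FDFT1, INSIG1 and SREBF2), an arrangement that 23.5% of all genes showed. edgeR called none of the 8 and 5 of the 13426 genes (0.0372%), limma-voom called none of the 8 and 7 genes in all (0.0521%), and DESeq2 called 1 of the 8 and 181 genes (1.35%).

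The log2 change of HMGCS1 against WT was -1.003 ± 0.19 (SE; 95% interval -1.45 to -0.56), with an adjusted p of 0.239 in edgeR, 0.218 in limma-voom and 0.00392 in DESeq2. The DESeq2 adjusted p was 0.00193 to 0.932 when 1 library was left out, and the call was lost without AC1903 replicate 1 (0.260), AC1903 replicate 2 (0.102) or WT replicate 2 (0.932). CYP51A1 differed by -0.60 ± 0.19 (95% interval -1.02 to -0.17; edgeR adjusted p 0.360), and FDFT1 by -0.54 ± 0.18 (-0.95 to -0.13; 0.384). INSIG1 differed by -0.56 ± 0.24 (edgeR adjusted p 0.448) and MSMO1 by -0.44 ± 0.21 (0.462). For SREBF2 the change was -0.26 ± 0.16 (95% interval -0.62 to 0.10; edgeR adjusted p 0.562). SQLE (-0.42 ± 0.32) and IDI1 (-0.01 ± 0.34) overlapped WT, with edgeR adjusted p of 0.642 and 0.993. Without WT replicate 2, the deeper WT library and the higher one for all 8 genes, MSMO1 was at -0.16, SQLE at -0.08 and INSIG1 at -0.33 against WT. Without WT replicate 1, MSMO1 was at -0.69 and SQLE at -0.70, and SQLE was at -0.14 without AC1903 replicate 1 and at -0.80 without AC1903 replicate 2. Cell type markers differed in this comparison too. Of the 11 proximal tubule markers, 10 were higher without overlap than in WT (1 called by DESeq2), with sums of 2629 and 2638 CPM in AC1903 glomeruli and 1807 and 1204 CPM in WT. Of the 9 markers of the loop, distal tubule and collecting duct, 5 were higher and 1 lower without overlap. Of the 7 mesangial and vascular smooth muscle markers, 5 were lower without overlap. The 10 podocyte markers had 8 lower and 2 higher in the mean, with 4 lower without overlap. The 10 glomerular endothelial markers had 6 lower and 4 higher in the mean, with 3 lower without overlap. Of the 13 macrophage and monocyte markers, 11 were higher in the mean and 4 without overlap. Among all genes, 24.2% were higher and 23.5% lower without overlap. DESeq2 also called 1 marker in each of the loop, mesangial and macrophage lists. edgeR called none of the markers of these lists, and their part in the values of the 8 genes was not tested.

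The median over the 8 genes in AC1903 against WT was -0.49, and over all genes 0.00, with 49.8% of all genes below 0. Of the 8, 4 were lower at an unadjusted p under 0.05 in edgeR, against 4.2% of all genes. Here too the way the genes were chosen makes this a description.

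Between vehicle-treated AT1R Tg glomeruli and WT, none of the 8 genes passed with edgeR, limma-voom or DESeq2, and none had an unadjusted p under 0.05 in edgeR, lower (3.35% of all genes) or in either direction. Of the 8, 3 were below 0, as were 53.4% of all genes. edgeR called 10 of all 13426 genes (0.0745%), limma-voom 7 (0.0521%) and DESeq2 560 (4.25% of the 13165 with an adjusted p), and 1601 genes (11.9%) had an unadjusted p under 0.05. SREBF2 averaged 65.0 ± 6.53 CPM in vehicle-treated AT1R Tg glomeruli and 81.5 ± 6.93 CPM in WT (SD, n = 2 each), a log2 change of -0.33 ± 0.16 (95% interval -0.69 to 0.04; edgeR adjusted p 0.479). It was the only one of the 8 whose AT1R Tg vehicle libraries lay below WT, which 23.4% of all genes did. IDI1 was the only one whose vehicle libraries lay above WT (log2 change 0.35 ± 0.33, edgeR adjusted p 0.748), as did 20.6% of all genes. The other 6 overlapped, and their log2 changes ran from -0.12 for FDFT1 (95% interval -0.52 to 0.29) to 0.43 for SQLE (-0.28 to 1.14). HMGCS1 differed by -0.11 (95% interval -0.54 to 0.33), CYP51A1 by 0.02 (-0.40 to 0.44), INSIG1 by 0.19 (-0.36 to 0.74) and MSMO1 by 0.27 (-0.21 to 0.75). Leaving out WT replicate 1 gave 0.03 for MSMO1 and 0.16 for SQLE, and leaving out WT replicate 2 gave 0.55 and 0.77. Leaving out vehicle replicate 1 gave 0.10 for MSMO1 and 0.26 for SQLE. MSMO1 was at 0.42 if vehicle replicate 2 was dropped. When the rats' age entered the model, MSMO1 was at 0.50, SREBF2 at -0.18 and IDI1 at 0.10, and IDI1 was at 0.21 without vehicle replicate 2. The median over the 8 was 0.11, and over all genes -0.03. In the authors' deposited table, adjusted p-values of the 8 genes in this comparison ran from 0.580 to 0.976, where 4.42% of that table's genes pass.

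In the same comparison the 11 proximal tubule markers summed to 2470 and 4699 CPM in vehicle-treated AT1R Tg glomeruli and 1807 and 1204 CPM in WT, and all 11 lay above WT without overlap, 9 of them called by DESeq2 and none by edgeR. The 10 glomerular endothelial markers summed to 6550 and 7041 CPM with vehicle and 9353 and 9300 CPM in WT, all 10 lower in the mean, 9 of them without overlap and 1 called by DESeq2. The 13 macrophage and monocyte markers summed to 245 and 319 CPM with vehicle and 264 and 449 CPM in WT, all 13 lower in the mean and 2 without overlap. Of the 7 mesangial and vascular smooth muscle markers, 5 were lower and 2 higher in the mean, with 3 lower without overlap and 1 called by DESeq2. The 10 podocyte markers had 9 lower and 1 higher, with 1 lower without overlap. The 9 markers of the loop, distal tubule and collecting duct had 7 higher and 2 lower, with 1 higher without overlap. Among all genes, 20.6% were higher and 23.4% lower without overlap, and DESeq2 called 4.25%. The WT libraries were also deeper, at 25045081 and 36026772 counts. What these have to do with the values of the 8 genes was not tested. The comparisons share libraries, so a change of AC1903 against vehicle and one against WT, or one of vehicle against WT, are not independent of each other.

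**Figure D3:**
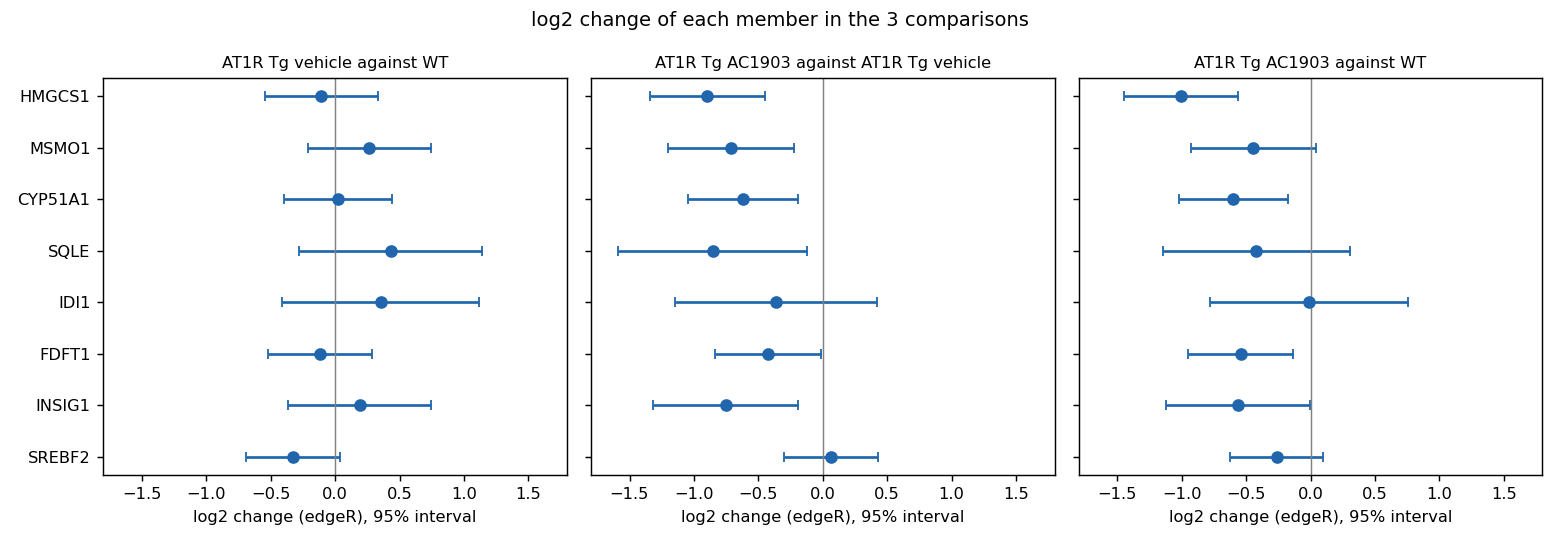
Log2 change of the 8 genes with its 95% interval (horizontal axis) from the edgeR fit, in panels for vehicle against WT, AC1903 against vehicle and AC1903 against WT. Intervals for HMGCS1 lie below 0 in both AC1903 comparisons (-1.34 to -0.45 against vehicle and -1.45 to -0.56 against WT), and all 8 vehicle against WT intervals include 0.

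Across the 6 libraries, most of the 8 genes followed one pattern. The level of each gene (log2 CPM) was set beside the mean of the other 7, and Pearson's r is given as a description over 6 libraries that share depth and TMM scaling. It was 0.944 for HMGCS1, 0.943 for MSMO1, 0.920 for INSIG1, 0.911 for CYP51A1, 0.84 for SQLE and 0.799 for FDFT1. IDI1, the gene with the fewest counts, was at 0.413, and SREBF2 at 0.225. Centred on each gene's mean over the 6 libraries, the mean log2 level of the 7 genes other than SREBF2 was -0.46 and -0.32 in AC1903 glomeruli, 0.36 and 0.18 with vehicle, and -0.08 and 0.31 in WT. SREBF2 stood at -0.01 and -0.12 with AC1903, -0.03 and -0.23 with vehicle, and 0.11 and 0.28 in WT, highest in the 2 WT libraries.

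As a root mean square over genes, the 2 AC1903 replicates differed by 0.325 (log2) for the 8 genes and by 0.756 for all genes tested, which include genes with fewer counts. In the vehicle group this spread was 0.318 for the 8 and 0.778 for all, and in WT 0.399 and 0.548. The widest single gaps among the 8 were those of SQLE with AC1903 (0.65 log2), INSIG1 with vehicle (0.65) and SQLE in WT (0.61).

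The 5 other genes with a symbol most like the mean of the 8 were ZNF607, MRPL20, SEC61A1, KCNE4 and RTN2, with r of 0.996, 0.991, 0.990, 0.989 and 0.987 over the 6 libraries. SEC61A1, a subunit of the translocon of the endoplasmic reticulum, had 126 and 136 CPM with AC1903, 184 and 164 CPM with vehicle, and 158 and 183 CPM in WT. MRPL20, a mitochondrial ribosomal protein, had 33.1 and 35.3 CPM, 41.1 and 39.0 CPM, and 36.7 and 41.8 CPM in AC1903, vehicle and WT glomeruli. KCNE4, a potassium channel regulatory subunit, had 2.83 and 3.04 CPM with AC1903, 8.85 and 7.08 CPM with vehicle, and 5.67 and 10.1 CPM in WT, a log2 change of -1.44 against vehicle (edgeR adjusted p 0.539). They are the best over 6 libraries of all tested genes that have a symbol, the 8 left out, and no p is attached.

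The rest of the pathway was read from a list of 24 cholesterol synthesis symbols, of which 21 were found in the files and tested. IDI2 and FDPS were not found. The list held ERG28 also under its older symbol C14orf1, and that gene was found and tested as C14orf1. Leaving out the 6 enzymes above, 15 remained. In AC1903 against vehicle, 12 of the 15 had a lower mean, with a median log2 change of -0.33 beside -0.02 for all genes. Both AC1903 libraries lay below both vehicle libraries in 9 of them, among them ACAT2, MVK, PMVK, MVD, LSS, TM7SF2 and DHCR7, and above them in 2 (LBR and C14orf1), as against 18.4% of all genes below and 19.9% above. No tool called any of the 15, and 2 had an unadjusted p under 0.05 in edgeR (ACAT2 and PMVK). Several of these genes have few counts, so their intervals are wide.

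PMVK, phosphomevalonate kinase, had 12.8 and 11.2 CPM with AC1903, 17.1 and 17.1 CPM with vehicle, and 14.9 and 18.4 CPM in WT (log2 change against vehicle -0.51 ± 0.22, edgeR adjusted p 0.606).

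Another arrangement was seen in genes whose vehicle libraries also lay above WT. ACAT2, the cytosolic acetoacetyl-CoA thiolase, had 5.87 and 4.27 CPM with AC1903, 8.04 and 9.20 CPM with vehicle, and 4.84 and 4.27 CPM in WT. Its log2 change was -0.77 ± 0.33 for AC1903 against vehicle (edgeR adjusted p 0.611) and 0.92 ± 0.32 for vehicle against WT (0.279). DHCR7, the last reductase of one branch, had 6.74 and 5.68 CPM, 9.06 and 10.4 CPM, and 6.35 and 7.64 CPM in AC1903, vehicle and WT glomeruli. In both genes the vehicle libraries were the highest of the 6.

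TM7SF2, a sterol reductase of the step after CYP51A1, had 6.24 and 6.15 CPM with AC1903, 8.42 and 8.14 CPM with vehicle, and 4.45 and 3.23 CPM in WT. Its log2 change of vehicle against WT was 1.11 ± 0.32, with an adjusted p of 0.203 in edgeR and 0.0449 in DESeq2, which was the only DESeq2 call among the 15 in any of the 3 comparisons. LBR, the other reductase of that step and also a nuclear lamina receptor, had 16.1 and 12.4 CPM with AC1903, 11.9 and 10.1 CPM with vehicle, and 12.1 and 11.5 CPM in WT. Its r with the mean of the 8 genes was -0.715, the lowest in the list.

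In vehicle against WT, 11 of the 15 were higher in the mean, 7 of them without overlap and none lower without overlap, with a median log2 change of 0.11. Of all genes, 20.6% were higher and 23.4% lower without overlap. In AC1903 against WT the 15 were split, 9 higher and 6 lower in the mean, with a median of 0.04. The median of the 8 genes in that comparison was -0.49, and the contrast between the lists was not tested. Among the 15, r with the mean of the 8 genes was highest for PMVK (0.924), and was 0.804 for LSS, 0.780 for MVK and near 0 for SC5D (0.104), HSD17B7 (-0.07) and TM7SF2 (-0.09).

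**Figure D4:**
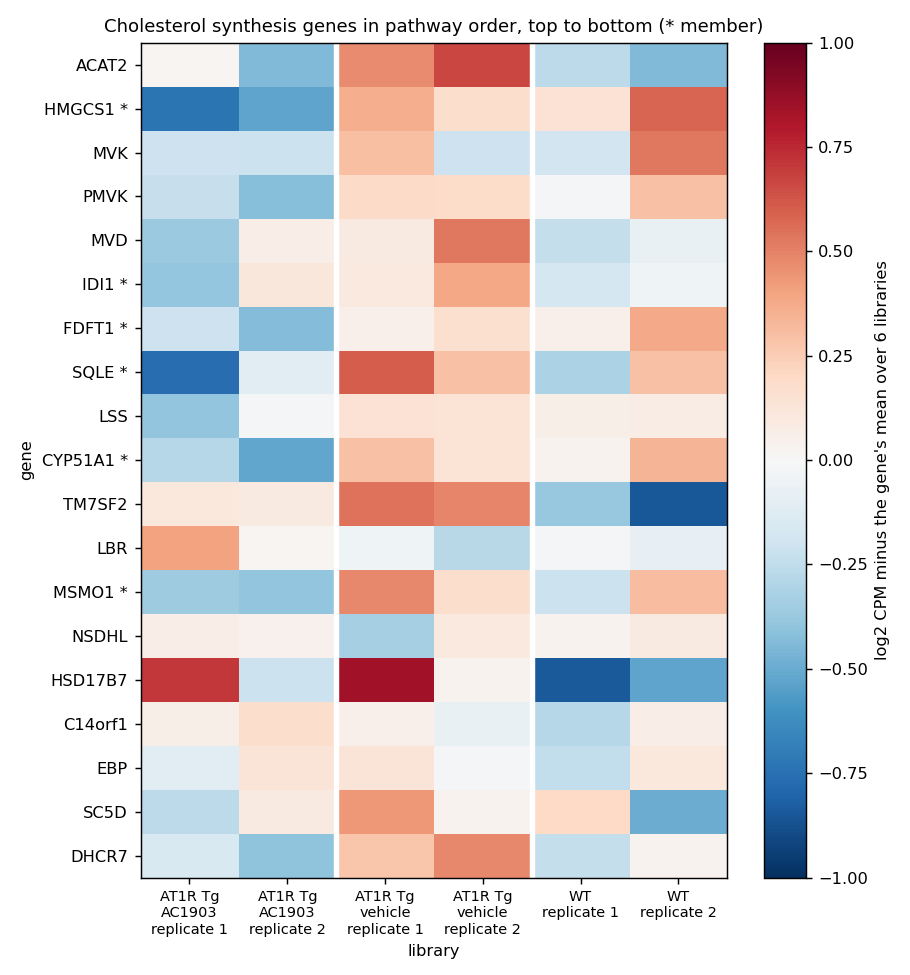
Log2 CPM of cholesterol synthesis genes in pathway order (asterisks mark the 6 enzymes described first), each centred on its own mean over the 6 libraries (colour), with AC1903 columns on the left, vehicle in the middle and WT on the right. HMGCS1, CYP51A1 and FDFT1 are lowest in both AC1903 columns, whereas ACAT2 and DHCR7 are highest in both vehicle columns.

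No gene of the SREBP machinery itself passed. Of 11 genes for SREBP processing and sterol sensing other than INSIG1 and SREBF2, none was called by edgeR or DESeq2 in any comparison, and the median log2 change was -0.10 for AC1903 against vehicle, with 7 of 11 below 0. SCAP, the escort of the SREBP precursors, had 75.1 and 72.3 CPM with AC1903, 85.2 and 72.8 CPM with vehicle, and 83.4 and 91.5 CPM in WT. MBTPS1, the site-1 protease, had 165 and 162 CPM, 159 and 152 CPM, and 197 and 189 CPM in AC1903, vehicle and WT glomeruli.

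Targets of SREBP2 outside synthesis were read from 13 symbols, of which 10 were found and tested. In AC1903 against vehicle 8 of 10 were below 0, with a median log2 change of -0.24 and none called by any tool. Without overlap, 4 of the 10 were lower and 1 higher, beside 18.4% and 19.9% of all genes. FADS1, a fatty acid desaturase, had 92.3 and 95.1 CPM with AC1903, 118 and 125 CPM with vehicle, and 66.6 and 57.0 CPM in WT. FADS1 was higher in vehicle-treated AT1R Tg glomeruli than in WT by 0.98 ± 0.15 on the log2 scale, called by DESeq2 (adjusted p 1.83e-05) and not by edgeR (0.119). ACLY, which makes cytosolic acetyl-CoA, had 92.9 and 103 CPM, 94.4 and 105 CPM, and 88.0 and 85.2 CPM in AC1903, vehicle and WT glomeruli.

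Fatty acid synthesis and SREBP1 targets were split in AC1903 against vehicle: 6 of 11 were above 0 and 5 below, with a median log2 change of 0.10 and none called by any tool. SCD, a stearoyl-CoA desaturase whose symbol belongs to 2 identifiers, had 346 and 541 CPM with AC1903, 524 and 408 CPM with vehicle, and 557 and 539 CPM in WT at the identifier with more counts. FASN, fatty acid synthase, had 44.1 and 59.1 CPM, 54.5 and 61.9 CPM, and 50.4 and 59.5 CPM, and ELOVL5, an elongase, had 64.1 and 79.1 CPM, 65.8 and 49.6 CPM, and 67.0 and 48.8 CPM in AC1903, vehicle and WT glomeruli. In all 3 genes the AC1903 and vehicle libraries overlapped.

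Among 9 LXR targets and cholesterol efflux genes the median log2 change of AC1903 against vehicle was 0.12, and none was called by any tool. Without overlap, 4 of the 9 were higher and 0 lower, beside 19.9% and 18.4% of all genes. PLTP, the phospholipid transfer protein, had 235 and 324 CPM with AC1903, 310 and 253 CPM with vehicle, and 594 and 605 CPM in WT. It was lower in both AT1R Tg groups than in WT, by 1.09 for vehicle and 1.10 for AC1903 on the log2 scale, with DESeq2 adjusted p of 0.000225 and 0.000191 and edgeR adjusted p of 0.162 and 0.239. APOE, the apolipoprotein that carries cholesterol between cells, had 475 and 306 CPM with AC1903, 333 and 785 CPM with vehicle, and 255 and 136 CPM in WT. MYLIP, a ubiquitin ligase induced by LXR, had 81.6 and 112 CPM, 99.0 and 97.0 CPM, and 106 and 125 CPM.

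Genes for cholesterol storage, lysosomal release and oxidation (12 tested) had a median log2 change of 0.06 in AC1903 against vehicle, and the isoprenoid list (11 tested) one of 0.04, with no call by edgeR or DESeq2 in any comparison. NPC2, which moves cholesterol out of lysosomes, had 105 and 102 CPM with AC1903, 130 and 114 CPM with vehicle, and 119 and 134 CPM in WT. LIPA, the lysosomal lipase, had 107 and 137 CPM, 115 and 94.8 CPM, and 113 and 109 CPM, and OSBP, an oxysterol-binding protein, had 82.8 and 99.6 CPM, 85.9 and 76.2 CPM, and 93.3 and 87.6 CPM. FNTA, a subunit of farnesyltransferase, had 66.4 and 61.8 CPM, 78.6 and 57.9 CPM, and 77.4 and 77.3 CPM in AC1903, vehicle and WT glomeruli. NUS1, a subunit of the enzyme that makes dolichol, had 70.0 and 73.2 CPM, 73.7 and 57.8 CPM, and 58.5 and 57.7 CPM.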

How the data were processed

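Glomerular RNA from 6 rats was made into stranded, poly(A)-selected libraries, per the labels' protocols. The authors deposited a table of expected counts per gene for 26319 Ensembl genes. The submitters' processing notes list the tools STAR 2.5.2b and RSEM 1.3.0, and Rnor_5.0 as the build, with no annotation release. RSEM divides reads that map to several loci between genes, and how many such reads each gene held is not in the table. SQLE had fractional counts in every library, INSIG1 in WT replicate 1 alone, and ACAT2 in all but vehicle replicate 2. The authors also deposited 2 tables of log2 fold changes and p-values with adjusted p-values, which gave the symbols of 12321 identifiers (154 with more than 1 symbol). The deposited log2 fold changes and p-values are printed only where named.

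Expected counts were rounded, filtered by expression in edgeR 4.0.16 (13426 genes kept) and scaled by TMM. One model over the 3 groups (3 residual degrees of freedom) gave quasi-likelihood tests with Benjamini-Hochberg adjustment over all 13426 genes and a threshold of 0.05. A standard error is the log2 change divided by the square root of F, and intervals use the moderated degrees of freedom. Alternatives were DESeq2 1.42.0, limma-voom 3.58.1 (R 4.3.3), other scalings and filters, an age covariate, a replicate block, and leaving out each library. DESeq2 without each library was added after the data were seen. The main edgeR fit, and none of the alternatives, was also run on simulated counts drawn with the same spread for all genes.

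The 8 genes, the lists and the markers were chosen with earlier results of these data known. Named genes are the 8, any of the cholesterol synthesis list, the 3 of highest mean level in each other list with any that passed in edgeR, and the 5 most correlated genes; some genes that this rule covers are not reported here, although counts and medians of the lists include them. The motifs TCACNCCA and CACGTG were added after a first look at the promoters. Same-numbered replicates did not deviate together from their group means (correlations -0.04, 0.0046 and -0.02 across genes), so the numbers were not taken as pairs. The replicates of each group differed by more than counting noise (chi-square per degree of freedom 19.0 to 92.8). The ages in the labels differ within each group, so replicates were different rats.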

Additional observations from a re-analysis of the deposited data

How the results depend on the processing

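The number of genes called in all moved with the tool and the filter more than the 8 genes did. For vehicle against WT, where edgeR called 10 genes, DESeq2 called 560, edgeR with no filter on low counts 774, and the fit on only these 2 groups, the replicate block and the age covariate 4 each. For AC1903 against vehicle (0 genes), DESeq2 called 67, no filter 114, the replicate block 2 and the age covariate 1. For AC1903 against WT (5 genes), DESeq2 called 181, no filter 464 and the fit on only these 2 groups 21. Leaving out 1 library gave 1 to 530 genes for vehicle against WT (530 without vehicle replicate 1, 24 without vehicle replicate 2, 1 without WT replicate 1, 4 without WT replicate 2, 4 without AC1903 replicate 1, 3 without AC1903 replicate 2). It gave 0 to 4 for AC1903 against vehicle (4 without vehicle replicate 2, 2 without AC1903 replicate 2) and 1 to 25 for AC1903 against WT (25 without vehicle replicate 1, 19 without vehicle replicate 2, 3 without either AC1903 library, 1 without WT replicate 1). The cause was not tested.

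HMGCS1 passed with DESeq2 (AC1903 against vehicle -0.91, adjusted p 0.0255; against WT -0.99, 0.00392) and in edgeR with no filter (-0.93, 0.00995; -1.02, 0.00165), and in no other setting of edgeR or limma-voom tried. Its log2 change over all alternatives was -1.03 to -0.81 against vehicle (adjusted p 0.00995 to 0.806) and -1.21 to -0.77 against WT. The age covariate moved AC1903 against vehicle to -1.06 for INSIG1, whose value was -0.39 without vehicle replicate 1. The replicate block changed no call of the 8 genes (HMGCS1 against vehicle -0.91, adjusted p 0.587). Small changes turned sign. IDI1 in AC1903 against WT was 0.00021 with DESeq2, 0.00018 with relative log expression scaling, 0.00625 with the 5 CPM filter and 0.026 with age, and -0.29 to 0.21 with 1 library left out. SREBF2 in AC1903 against vehicle was -0.11 with age and -0.0431 to 0.17 with 1 library left out. With 1 library left out, vehicle against WT ran from -0.13 to 0.18 for CYP51A1, -0.28 to 0.0583 for FDFT1, -0.31 to 0.13 for HMGCS1 and -0.18 to 0.48 for INSIG1. A group left with 1 library is assumed to vary like the others. IDI1, with 51 counts in AC1903 replicate 1, is the gene that depth limits most.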

Other observations

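The following 3 genes of the lists were chosen after their values were seen. ACSS2, which makes acetyl-CoA from acetate, had 29.6 and 35.97 CPM in AC1903-treated AT1R Tg glomeruli, 43.5 and 60.0 CPM with vehicle, and 30.7 and 32.5 CPM in WT. Its vehicle libraries were the highest of the 6, and its log2 change was -0.66 ± 0.20 for AC1903 against vehicle (edgeR adjusted p 0.549) and 0.71 ± 0.20 for vehicle against WT (0.201). ABCA1, the transporter that passes cholesterol to apolipoproteins, had 18.5 and 21.6 CPM with AC1903, 11.6 and 13.2 CPM with vehicle, and 14.8 and 9.68 CPM in WT, with the AC1903 libraries the highest of the 6. Its log2 change of AC1903 against vehicle was 0.69 ± 0.26 (edgeR adjusted p 0.602). LIPE, the hormone-sensitive lipase that also splits cholesteryl esters, had 77.4 and 57.1 CPM with AC1903, 40.5 and 46.0 CPM with vehicle, and 55.4 and 59.4 CPM in WT, a log2 change of 0.64 against vehicle (edgeR adjusted p 0.549). None passed in edgeR.

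The 5 lymphocyte markers found summed to 23.0 and 27.7 CPM with AC1903, 10.6 and 11.7 CPM with vehicle, and 15.5 and 18.6 CPM in WT. CD79A was at 0 in vehicle replicate 1 and CD79B in AC1903 replicate 2. The 3 markers found of perirenal fat and steroid-making tissue summed to 4.41 and 6.39 CPM with AC1903, 4.03 and 3.09 CPM with vehicle, and 4.27 and 3.93 CPM in WT, with the other 8 of that list not found in the files.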
